A study of Homo sapiens with 5 samples.

Results

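Cells that had received insulin were compared with cells that had received LY294002, an inhibitor of phosphoinositide 3-kinase (PI3K), at the same stage of the same differentiation protocol. The comparison used the array labelled for insulin and the array labelled for LY294002, which are 2 of the 5 arrays of the study, and every probe that carried a gene name. Of 20041 genes with a named probe, 9990 were detected on at least 1 of the 2 arrays, and these genes are described here.

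All groups were grown from H1, which is an established line of human embryonic stem cells, on matrigel-coated plates with fresh medium every day, and all of them received CHIR99021 at the start, a GSK3 inhibitor used to induce mesoderm. The insulin group received insulin from day 2 to day 5 and the LY294002 group received LY294002 over the same days. Further groups received IWP2, an inhibitor of WNT secretion, alone or together with LY294002, and the control group stayed in basal differentiation medium. Every group was harvested on day 10, 5 days after the additions ended, so the values describe cells some time after the exposure. Each group is 1 array of 1 cell line, without a replicate, and doses are not given in the labels. There is therefore no spread between replicates, no difference below was tested, and no p-value can be given.

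Insulin binds the insulin receptor, which recruits adaptor proteins of the IRS family and activates PI3K. PI3K makes a membrane lipid that activates the kinase AKT; AKT in turn activates mTOR, a kinase that drives protein and lipid synthesis, and keeps the FOXO transcription factors out of the nucleus. LY294002 occupies the ATP site of PI3K and blocks the pathway at that step; it is known to act on mTOR and other kinases as well. In protocols that make heart muscle from pluripotent cells, insulin is commonly left out during the early days because it is known to lower the yield of cardiomyocytes.

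Values are normalized log2 intensities, so a difference of 1 is 2-fold, and every difference is insulin minus LY294002. A gene was called detected on an array where its detection p-value, the share of negative control probes at least as bright, lay under 0.01. For a gene detected on both arrays, a difference of at least 1 in either direction was counted as past 2-fold. Where only 1 array detected the gene, its true difference is unknown and a bound is given: the measured value minus the weakest signal still detected on the other array, or minus the gene's value there if that was higher. The intensities of different probes depend on the probe, so they do not rank the abundance of different transcripts.

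The labels call the cells embryonic stem cells, and the defining genes of that state were mostly absent at harvest. POU5F1, NANOG and SOX2, the core regulators of pluripotency, were not detected on either array. Of the wider marker list, ZFP42 stood at 7.90 with insulin and 7.76 with LY294002, and DNMT3B, a DNA methyltransferase, at 7.71 with insulin and 6.55 with LY294002. The median raw intensity was 118.2 on the insulin array and 106.9 on the LY294002 array, the dimmest of the 5. On these arrays 14242 probes were detected with insulin and 13173 with LY294002. What part this dimness has in genes that were detected with insulin only was not tested gene by gene.

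The broad pattern was a higher signal of liver-type, epithelial and matrix genes with insulin and a higher signal of heart muscle genes with LY294002. Both arrays detected 7736 genes, of which 981 (12.7%) were higher and 923 (11.9%) lower with insulin by 2-fold or more, together 24.6%. Under scaling to the 75th percentile in place of quantile normalization the split was 1385 higher and 609 lower, so 69.5% of the genes past 2-fold were higher, against 51.5% in the values used here; that scaling placed the median of all genes detected on at least 1 array at 0.19, against 0.05. At 4-fold or more, 194 genes were higher and 97 lower, and at 8-fold or more, 56 were higher and 24 lower. A further 1548 genes (15.5% of the 9990) were detected with insulin only and 706 (7.07%) with LY294002 only, of which 307 (3.07%) and 151 (1.51%) had a bound of at least 2-fold. With the same number of probes taken as detected on both arrays, an alternative added after the data were seen, these groups held 1252 and 920 genes. The correlation of the levels on both arrays across the 7736 genes was 0.84 (Pearson), as a description, since genes are not independent replicates.

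**Figure D1:**
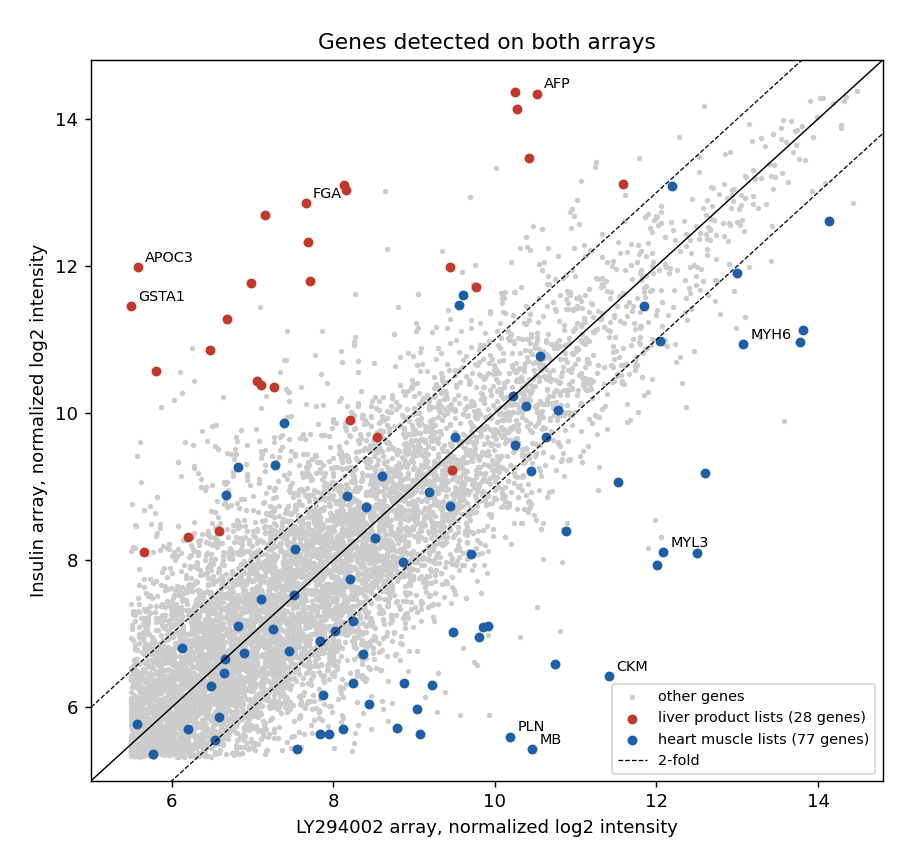
Normalized log2 intensity of the 7736 genes detected on both arrays, with the insulin array on the vertical axis and the LY294002 array on the horizontal axis. The solid line marks equal values and the dashed lines a 2-fold difference. Red points are the 28 measured genes of the 4 liver product lists, of which 27 lie above the upper dashed line, and blue points are the 77 measured genes of the 4 heart muscle lists, of which 36 lie below the lower dashed line.

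The 15 genes with the largest positive difference were led by secreted products of liver-type cells. APOC3, an apolipoprotein that slows the clearance of triglyceride-rich particles, stood at 11.98 with insulin and 5.58 with LY294002, an 84.6-fold difference. GSTA1, a glutathione transferase, stood at 11.45 with insulin and 5.50 with LY294002 (61.6-fold), and AHSG, the fetal serum glycoprotein fetuin-A, at 12.70 and 7.16 (46.6-fold). The next were FGA (36.6-fold), APOA4 (31.3-fold), SERPINA1 (29.2-fold), FGG (27.6-fold), VTN (27.3-fold), FGB (24.9-fold), LEAP2 (24.8-fold), GSTA2 (24.2-fold), TKTL1 (21.9-fold), APOB (20.9-fold), DLK1 (20.9-fold) and TGFBI (20.5-fold). GSTA1 and GSTA2 are near-identical paralogs, so their probes may share signal. Where a second probe was detected on both arrays it gave a like value: 5.22 for SERPINA1 beside 4.87, 4.11 for FGB beside 4.64, and 3.97 for DLK1 beside 4.39.

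Among genes detected with insulin only, the largest bounds were those of DPYS, an enzyme of pyrimidine breakdown that was at least 52.6-fold higher, MS4A10 (at least 28.8-fold), IGSF1 (at least 25.7-fold), the trypsin inhibitor SPINK1 (at least 22.7-fold) and EGFLAM (at least 22.7-fold). They were followed by CDH1, which encodes E-cadherin (at least 20.8-fold), the heme carrier HPX (at least 18.6-fold), the citrate transporter SLC13A5 (at least 18.6-fold), the organic anion transporter SLC22A7 (at least 18.1-fold) and the sulfotransferase CHST13 (at least 15.7-fold). DPYS, with the highest bound, had 11.20 with insulin and 5.14, not above the negative controls, with LY294002.

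The genes with the largest negative difference were mostly of striated muscle. MB, the oxygen store myoglobin, stood at 5.43 with insulin and 10.46 with LY294002, a 32.7-fold difference. CKM, the muscle creatine kinase, stood at 6.42 with insulin and 11.41 with LY294002 (31.7-fold), and PLN, the brake of the calcium pump of the sarcoplasmic reticulum, at 5.60 and 10.19 (24.1-fold). They were followed by SMPX (21.0-fold), the small heat shock protein HSPB7 (17.8-fold), the muscle enolase ENO3 (16.9-fold), ODAM (16.5-fold), the ventricular light chain MYL3 (15.6-fold), the nuclear export receptor XPO4 (13.6-fold), the elongation factor EEF1A2 of muscle and neurons (13.3-fold), FHL2 (13.3-fold), the adhesion molecule VCAM1 (12.9-fold), LRRN3 (12.8-fold), the gap junction gene GJA3 (10.8-fold) and the small nucleolar RNA SNORA12 (10.8-fold), all lower with insulin. Second probes gave -4.53 for SMPX beside -4.39, -4.17 for FHL2 beside -3.74, -4.01 for VCAM1 beside -3.69 and -3.47 for XPO4 beside -3.77.

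Among genes detected with LY294002 only, the ventricular transcription factor IRX4 was at least 28-fold lower with insulin, ACYP1 at least 24.7-fold, the cardiac transcription factor NKX2-5 at least 19-fold, the ligand WNT2 at least 16.2-fold and the muscle methyltransferase SMYD1 at least 12.3-fold. VSTM2L (at least 10.7-fold), PGA5 (at least 10.6-fold), KBTBD8 (at least 9.52-fold), SERPINI1 (at least 9.41-fold) and the Z-disc gene TCAP (at least 8.53-fold) completed the list. A second ACYP1 probe, detected on both arrays, gave -1.78, so the size for that gene depends on the probe. Over all genes past 2-fold that had another probe detected on both arrays, 369 of 404 (91.3%) had the same sign with the other probe, and 197 (48.8%) were past 2-fold with it as well; over all genes with such a probe the same sign was seen in 1126 of 1491 (75.5%). Of the genes past 2-fold, RCAN2, LAMP2, APOBEC3F, TAF15 and HNRNPUL1 had another probe with a difference of at least 0.58 in the opposite direction.

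Liver-type products formed the group with the highest differences. In early development, AFP, transferrin, apolipoproteins and fibrinogen are made by both the visceral endoderm of the yolk sac and the fetal liver, and they are also known from endoderm that arises beside mesoderm in culture. Over 4 lists (fetal serum proteins, apolipoproteins, fibrinogen and coagulation, hepatic metabolism), 55 genes were detected on at least 1 array; 27 of the 28 detected on both were at least 2-fold higher with insulin, none was lower by that size, and the other 27 were detected with insulin only. The share over all genes was 12.7% higher and 15.5% detected with insulin only. The median level of the 55 genes was 9.22 with insulin, 5.50 with LY294002, 7.01 with IWP2, 4.80 with both inhibitors and 9.05 in the control. The liver-type genes were therefore near their control level with insulin and well below it with LY294002, and the arrays with IWP2 lay between or lower. In such bulk samples, fewer cells of a type and less RNA per cell cannot be told apart.

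Of the fetal serum proteins, 13 of 18 on the array were detected and all 13 had a positive difference. The median was 4.05 (3.82 with members detected on 1 array set at their bounds). Of the 13, 6 were detected with insulin only, which all but fixes a positive sign. The 7 measured on both arrays were all at least 2-fold higher. AFP, the main serum protein of the fetus, stood at 14.34 with insulin and 10.52 with LY294002. TTR, the carrier of thyroid hormone and retinol-binding protein, stood at 14.36 with insulin and 10.25 with LY294002, and RBP4, its retinol-carrying partner, at 11.79 with insulin and 7.71 with LY294002. The 3 genes were thus still detected with LY294002, at about 4 log2 units less. ALB was detected with insulin only, at least 11.6-fold higher, as were TF (at least 6.76-fold), ORM1 (at least 4.54-fold) and SERPINA7 (at least 2.45-fold).

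Of the apolipoproteins and lipid transport genes, the 10 members measured by both arrays all stood 2-fold or more above LY294002 with insulin, and the median of the 13 detected genes was 3.10. APOA1, the main protein of high-density lipoprotein, stood at 14.14 with insulin and 10.27 with LY294002. MTTP, which loads lipid onto APOB, stood at 10.36 with insulin and 7.27 with LY294002. Among those 10, the smallest differences were those of APOE at 1.53 and the phospholipid transfer protein PLTP at 1.70, both of which are also made outside the liver.

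Of the 5 coagulation genes measured on both arrays, the 3 fibrinogen chains had the largest differences. Detected with insulin only were 9 further genes, against 15.5% of all genes. SERPINC1, which encodes antithrombin, was at least 14.1-fold higher, the plasmin precursor PLG at least 12-fold and factor X, F10, at least 10.1-fold. PROS1, the cofactor protein S, was the exception, at 9.22 with insulin and 9.47 with LY294002. The median over the 14 detected genes was 2.25, and 1.60 with bounds in place of undetected values. In hepatic metabolism, CPS1, the entry enzyme of the urea cycle, stood at 8.31 with insulin and 6.20 with LY294002. OTC and ARG1, further enzymes of that cycle, were detected with insulin only, at least 4.0-fold and 3.10-fold higher, and ASS1 stood at 9.67 with insulin and 8.54 with LY294002. The bile acid transporter SLC10A1 (at least 5.75-fold) and the asialoglycoprotein receptor subunit ASGR2 (at least 6.07-fold) were likewise detected with insulin only.

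The regulators of endoderm and liver identity ran the same way. FOXA2, a forkhead factor of early endoderm, stood at 10.22 with insulin and 6.64 with LY294002, and CEBPA, a factor of hepatocyte maturation, at 10.27 with insulin and 6.13 with LY294002. CREB3L3, a membrane-bound factor that controls lipoprotein genes in liver, was detected with insulin only and at least 10.7-fold higher, as were FOXA3 (at least 3.55-fold) and FOXA1 (at least 3.12-fold). GATA6, which is shared by endoderm and heart, stood at 5.77 with insulin and 5.57 with LY294002. All 10 detected members of the list had a positive difference, with a median of 1.99, or 1.46 with bounds.

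Promoters of some liver genes with large differences that hold a match are shown, because forkhead and HNF1 factors are known to bind promoters of this class. APOC3 and GSTA1, which had the largest differences, were not among the genes with a match to either motif. The forkhead family holds both FOXA and the FOXO factors that AKT controls. The forkhead core TGTTTNC and the HNF1 site GTTAATNAT were searched on both strands in the 250 bases before each gene start in RefSeq promoter sequences, build GRCh38.p14, and the capitals mark the first match in each window. The windows are AHSG on the plus strand at chr3:186612883-186612969, SERPINA1 on the minus strand at chr14:94388664-94388750, and FGA on the minus strand at chr4:154590749-154590837, each read 5′ to 3′ along the gene.
AHSG: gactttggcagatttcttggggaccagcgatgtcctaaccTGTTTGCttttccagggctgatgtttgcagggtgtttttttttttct
SERPINA1: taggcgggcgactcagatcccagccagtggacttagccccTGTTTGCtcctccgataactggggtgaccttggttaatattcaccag
FGA: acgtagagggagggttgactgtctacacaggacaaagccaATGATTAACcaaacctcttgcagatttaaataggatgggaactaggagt

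The forkhead core was present in 5 of 11 fetal serum genes with a promoter in the table (AHSG, ALB, FETUB, SERPINA1 and VTN), in 3 of 8 apolipoprotein genes, in 4 of 12 coagulation genes and in 1 of 11 hepatic metabolism genes, against 18.4% of all 27305 genes (15.5% of the 35116 promoters). The HNF1 site was present in AFP, ALB, FGA and PLG among these lists, against 0.879% of all genes. It was searched first with 1 more base at its 3′ end, a form that AFP, FGA and PLG held and ALB did not, and was shortened to the letters printed here after those matches had been seen. In the FGA window the match is on the other strand. For SERPINA1, 1 of its 2 promoters held the forkhead core, the one shown. Matches of the forkhead core and the HNF1 site shared bases in 1 promoter of the whole table. The 6 motifs used here were settled on after promoters and expression values had been seen, so the shares are a description, and a match is neither a bound site nor a cause.

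Epithelial genes were higher with insulin in most members. EPCAM, an adhesion molecule of simple epithelia, stood at 11.44 with insulin and 8.80 with LY294002, KRT19 at 11.11 with insulin and 9.02 with LY294002, and CDH1 at 9.86 with insulin and 4.48, undetected, with LY294002. The tight junction genes CLDN3 (at least 4.45-fold) and CLDN7 (at least 3.65-fold) and the polarity gene CRB3 (at least 4.80-fold) were detected with insulin only, whereas CLDN6 stood at 5.73 with insulin and 6.26 with LY294002. The median over 15 detected genes was 1.56. Of 8 measured genes, 4 were at least 2-fold higher and none was lower by that size, against 12.7% and 11.9% of all genes. Markers of the yolk sac and visceral endoderm had a median of 2.32 over 13 genes, all positive. Of the 13, 5 were detected with insulin only, which all but fixes a positive sign, and 6 of the 8 measured were at least 2-fold higher. DAB2, an endocytic adaptor, stood at 9.11 with insulin and 7.08 with LY294002, and the zinc transporter SLC39A5 at 9.02 and 6.50. This list shares TTR, RBP4, FGB and APOA4 with the lists above, so it is not separate evidence on them.

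Genes of fibroblasts and of the extracellular matrix were also higher with insulin. Of 25 measured genes, 19 were higher and 1 was lower by 2-fold or more, against 12.7% and 11.9% of all genes. The median was 1.91 over the 30 detected. COL1A1 stood at 11.76 with insulin and 9.73 with LY294002, COL3A1 at 13.34 with insulin and 11.24 with LY294002, and DCN, a small proteoglycan, at 10.11 with insulin and 7.87 with LY294002. PDGFRB, the receptor of perivascular and stromal cells, was at 10.08 with insulin and 5.87 with LY294002, and the collagen cross-linking enzyme LOX was detected with insulin only (at least 7.71-fold higher). FBN2, the fibrillin of embryonic microfibrils, ran against the list, at 9.26 with insulin and 11.29 with LY294002, and FSTL1 stood at 10.50 and 10.61.

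Of the basement membrane genes, 10 of 12 measured were at least 2-fold higher with insulin, against 12.7% of all genes. The median was 1.52. COL4A6 stood at 11.11 with insulin and 7.86 with LY294002, and LAMC1, the laminin chain that most laminins share, at 12.39 with insulin and 10.38 with LY294002. LAMA4, the laminin chain typical of muscle and vessels, was detected with LY294002 only and at least 5.18-fold lower with insulin. Markers of epicardium and mesothelium had 5 of 8 measured genes at least 2-fold higher, against 12.7% of all genes. The 5 include KRT19 and ALDH1A1, which also belong to the epithelial and hepatic metabolism lists, so they are not separate evidence. Also among the 5 were LHX2 (9.83 with insulin and 6.50 with LY294002) and WT1, a regulator of the epicardium (7.26 and 5.92). TBX18 and TCF21 were detected with insulin only (at least 2.77-fold and 2.89-fold). UPK3B and UPK1B, surface markers of mesothelium, were detected with LY294002 only, at 5.86 and 5.62, close to the lowest detected signal of 5.49 on that array.

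Most vascular and blood genes were not detected: 10 of 24 endothelial genes and 9 of 23 blood genes on the array were. Of these, 7 endothelial and 6 blood genes were detected with insulin only, against 15.5% of all genes. Some of them, such as VWF at 5.43, lay near the lowest detected signal of 5.33 on the insulin array. TEK, the receptor of angiopoietins, stood at 9.14 with insulin and 6.93 with LY294002. CDH5 was at least 2.88-fold higher and SOX18 at least 2.48-fold higher, while KDR stood at 6.26 with insulin and 6.96 with LY294002. The median of the endothelial list was 1.26, and 0.30 with bounds, so its size rests on undetected values. The fetal globins HBG1 and HBG2, near-identical genes, were at 7.07 and 7.45 with insulin and undetected on each of the other 4 arrays except HBG2 with IWP2, where the level was 5.65. HBE1, the embryonic globin, stood at 6.05 with insulin and was undetected with LY294002.

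**Figure D2:**
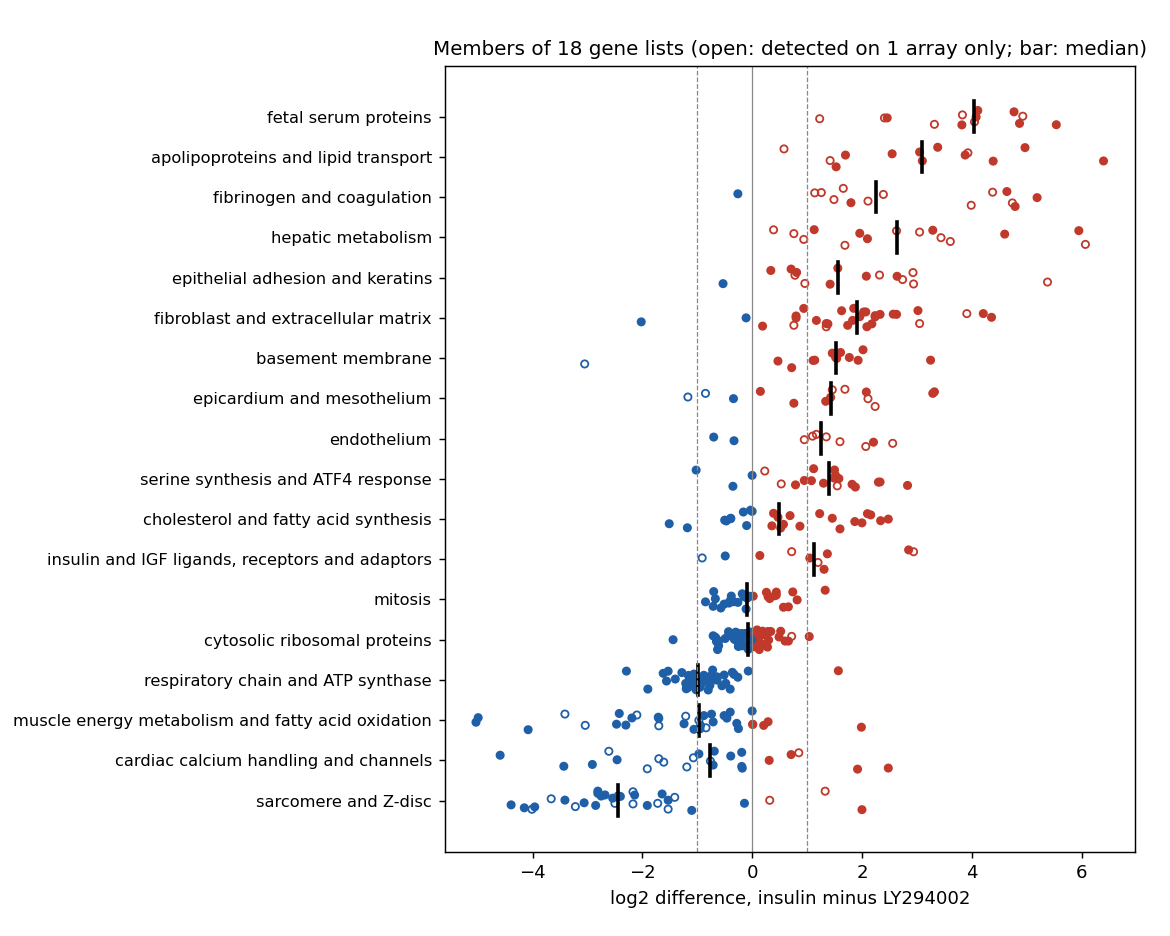
Log2 difference, insulin minus LY294002, of each detected member of 18 gene lists. Filled points were detected on both arrays and open points on 1 array only, red points are higher and blue points lower with insulin, black bars mark list medians and dashed lines mark 2-fold. The liver product lists lie furthest to the right, with the fetal serum proteins at a median of 4.05, and the sarcomere list furthest to the left, at -2.44.

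Heart muscle genes were lower with insulin. Over 4 lists (sarcomere and Z-disc, calcium handling and channels, cardiac transcription regulators, muscle energy metabolism), 112 genes were detected on at least 1 of the 2 arrays. Of the 77 detected on both, 36 were at least 2-fold lower with insulin and 6 at least 2-fold higher, against 11.9% and 12.7% of all genes. A further 29 were detected with LY294002 only and 6 with insulin only, against 7.07% and 15.5% of all genes detected on at least 1 array. The median difference was -1.22. The median level of the 112 genes was 6.52 with insulin, 8.17 with LY294002, 8.20 with IWP2, 7.97 with both inhibitors and 6.81 in the control. By this median over the 4 lists, the insulin array lay near the control array and the LY294002 array near the arrays with IWP2. Most single genes were nevertheless lower with insulin than in the control: 34 of the 112 were above their control level. In the sarcomere list alone the median level was 6.33 with insulin and 7.39 in the control.

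The sarcomere list had the most negative median of the 4, at -2.44. Of 19 measured genes, 17 were at least 2-fold lower with insulin, against 11.9% of all genes. A further 10 genes were detected with LY294002 only, against 7.07% of all genes. Detected with insulin only were DES, the muscle intermediate filament (6.05 with insulin and 4.71 with LY294002, at least 1.47-fold higher), and MYOM2 (5.66 and 5.35). Among the thick filament genes, MYH6, the atrial and early myosin heavy chain, stood at 10.94 with insulin and 13.07 with LY294002. The light chains MYL7 and MYL4 of the atrium and embryo stood at 11.13 and 10.97 with insulin and at 13.81 and 13.78 with LY294002. MYH7, the ventricular heavy chain, was detected with LY294002 only, at 7.77, and was at least 5.42-fold lower with insulin. Myosin genes of both chambers therefore ran the same way.

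Of the thin filament genes, TNNC1, the calcium-binding troponin of heart and slow muscle, stood at 9.19 with insulin and 12.60 with LY294002, and TPM1 at 12.61 with insulin and 14.14 with LY294002, with other TPM1 probes at -1.16 and -1.34 beside -1.53. ACTC1, the cardiac actin, stood at 11.90 with insulin and differed less, by -1.10, and TNNI3 was detected with LY294002 only (at least 1.65-fold lower). ACTA1, the skeletal actin, was the exception, at 9.29 with insulin and 7.28 with LY294002. At the Z-disc, CSRP3 (at least 7.22-fold), HSPB3 (at least 8.32-fold) and ACTN2 (at least 3.99-fold) were detected with LY294002 only, and NEBL stood at 7.09 with insulin and 9.85 with LY294002. TNNT2 was not analysed here.

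Promoters of 4 muscle genes that hold a CArG or MEF2 box are shown, 3 with a large difference and ACTC1 with a smaller one, because the serum response factor, through the CArG box, and MEF2 factors, through the MEF2 box, are known to control this class of genes. The capitals mark the first box found on either strand in the 250 bases before the gene start, in RefSeq sequence of build GRCh38.p14. For ACTC1, 1 of its 3 promoters held the CArG box, the one shown. All are minus-strand genes read 5′ to 3′: ACTC1 at chr15:34795609-34795698 and MYL7 at chr7:44141344-44141433 with a CArG box, and SMPX at chrX:21758160-21758249 and HSPB7 at chr1:16018076-16018165 with a MEF2 box.
ACTC1: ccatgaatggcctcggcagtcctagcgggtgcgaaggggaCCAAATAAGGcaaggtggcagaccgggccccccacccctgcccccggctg
MYL7: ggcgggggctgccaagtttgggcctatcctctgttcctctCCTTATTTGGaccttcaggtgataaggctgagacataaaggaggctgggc
SMPX: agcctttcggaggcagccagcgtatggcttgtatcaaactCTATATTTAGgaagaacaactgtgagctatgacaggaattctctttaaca
HSPB7: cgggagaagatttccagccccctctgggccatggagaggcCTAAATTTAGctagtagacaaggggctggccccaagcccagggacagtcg

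A CArG box was found in 5 of 22 sarcomere genes with a promoter (ACTA1, ACTC1, LDB3, MYL7 and MYOM1), against 1.44% of all genes, and a MEF2 box in 7 of 22 (HSPB3, HSPB7, KLHL41, MYOZ2, SMPX, SYNPO2L and XIRP1), against 3.44% of all genes. In the muscle energy list a MEF2 box was found in 6 of 28 genes. Matches of the CArG box and the MEF2 box shared bases in 0 promoters of the table, and those of the MEF2 box and the HNF1 site in 25. The genes with these boxes did not all lie on the same side: the log2 difference was 2.00 for ACTA1, -2.68 for MYL7 and -4.39 for SMPX.

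Calcium handling genes differed in both directions. The pump regulator PLN and the calcium-binding protein HRC of the sarcoplasmic reticulum stood at 5.60 and 7.02 with insulin and at 10.19 and 9.48 with LY294002, whereas the pump itself, ATP2A2, stood at 9.56 with insulin and 10.25 with LY294002. The sodium-calcium exchanger SLC8A1 (at least 4.0-fold), the channel subunit CACNB2 (at least 2.19-fold) and the release channel RYR2 (at least 1.33-fold) were detected with LY294002 only. SLN, the pump regulator of the atrium, stood at 11.47 with insulin and 9.56 with LY294002, and GJA1, the widely expressed connexin 43, at 9.86 with insulin and 7.39 with LY294002. Over the list, 4 of 15 measured genes were at least 2-fold lower and 2 higher with insulin, against 11.9% and 12.7% of all genes. A further 7 were detected with LY294002 only and 1 with insulin only, against 7.07% and 15.5% of all genes. The median was -0.76 (-0.42 with bounds).

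Cardiac transcription regulators did not share a direction. Of 17 measured genes, 5 were at least 2-fold lower and 2 higher with insulin, against 11.9% and 12.7% of all genes. A further 4 were detected with LY294002 only and 3 with insulin only, against 7.07% and 15.5% of all genes. The median was -0.02, a sign that differed between the processing alternatives. NKX2-5 stood at 5.27, undetected, with insulin and 9.58 with LY294002, MEF2C was at least 4.08-fold lower, IRX5 stood at 5.72 with insulin and 8.79 with LY294002, and IRX3 at 8.40 with insulin and 10.88 with LY294002. TBX2, a repressor of chamber genes, stood at 8.09 with insulin and 9.70 with LY294002, HEY2, a factor of the ventricle, at 7.04 and 8.02, and TBX3 was detected with insulin only (at least 2.41-fold higher). None of the 4 factors of heart progenitors and other mesoderm shown next was past 2-fold: ISL1 was at 9.68 with insulin and 9.51 with LY294002, HAND2 at 8.30 and 8.51, GATA4 at 8.15 and 7.52, and HAND1 at 13.09 and 12.19. The Notch target HEY1 stood at 9.27 with insulin and 6.82 with LY294002, and HOPX at 8.89 with insulin and 6.67 with LY294002.

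Energy genes of muscle followed the sarcomere genes. Besides MB, CKM and ENO3, the mitochondrial creatine kinase CKMT2 was at least 8.13-fold lower with insulin, the muscle phosphoglycerate mutase PGAM2 at least 4.48-fold lower, and SLC25A4, the ADP/ATP carrier of heart and muscle, stood at 9.06 with insulin and 11.52 with LY294002. PPARGC1A, a coactivator of mitochondrial biogenesis, stood at 5.64 with insulin and 7.94 with LY294002, and its nuclear receptor partner ESRRG at 6.17 with insulin and 7.87 with LY294002. The brain-type creatine kinase CKB ran the other way, at 11.60 with insulin and 9.61 with LY294002. In all, 10 of 26 measured genes were at least 2-fold lower and 1 higher with insulin, against 11.9% and 12.7% of all genes. A further 8 were detected with LY294002 only, against 7.07% of all genes, and the median was -0.96. Of the fatty acid oxidation enzymes, the medium-chain dehydrogenase ACADM stood at 9.21 with insulin and 10.45 with LY294002, HADHA at 7.75 and 8.21, and CPT2 at 7.52 and 7.51, while CPT1B (at least 1.91-fold lower) and ACADS (at least 1.41-fold lower) were detected with LY294002 only.

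In the respiratory chain nearly all differences had the same direction. Of 42 genes, all detected on both arrays, 41 had a negative difference. At least 2-fold lower with insulin were 21, against 11.9% of all genes. The median was -0.99, with a range of the median from -1.03 to -0.88 over the processing alternatives. By complex, the median was -0.88 for 16 genes of complex I, -0.88 for 3 genes of complex II, -1.02 for 5 genes of complex III, -1.08 for 10 genes of complex IV and -0.98 for 8 genes of ATP synthase. COX7B had the largest difference, at 10.08 with insulin and 12.37 with LY294002, followed by COX5B at 10.41 with insulin and 12.32 with LY294002. The catalytic ATP synthase subunits ATP5F1A and ATP5F1B differed little, at 12.88 and 13.44 with insulin and 12.95 and 13.84 with LY294002. The exception was NDUFA10 of complex I, at 9.24 with insulin and 7.67 with LY294002, where a second probe gave -0.33; for SDHC a second probe gave 1.63 beside -0.88. The element of estrogen-related receptors, TNAAGGTCA, searched on both strands because these receptors are known regulators of the respiratory chain, was found in 0 of 33 genes of this list with a promoter and in 1.05% of all genes. The cytosolic ribosomal proteins, another large set of steadily expressed genes, had a median of -0.08 over 59 genes, with 1 gene at least 2-fold higher and 1 lower, so that list did not share the lower values. The median level of the respiratory chain list was 10.40 with insulin, 11.40 with LY294002 and 10.51 in the control.

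**Figure D3:**
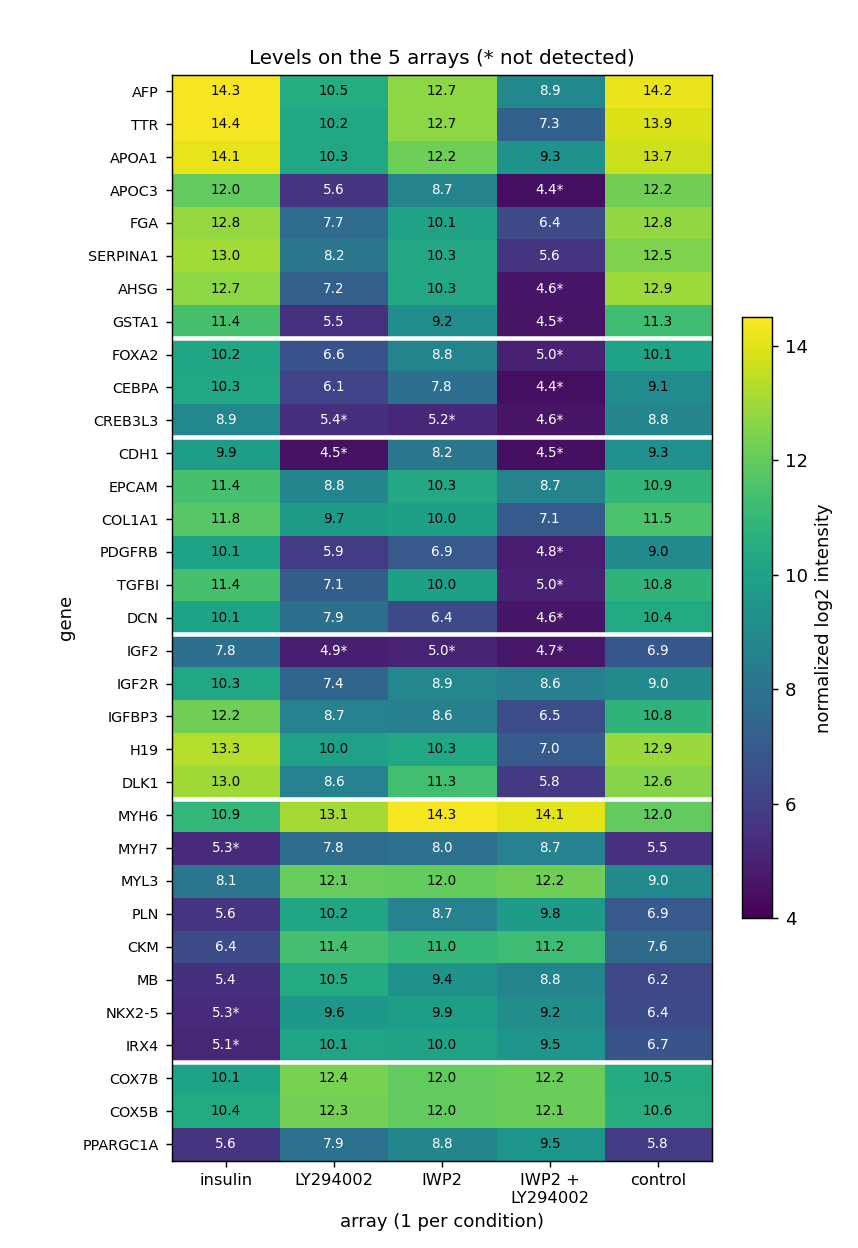
Normalized log2 intensity of 33 genes on the 5 arrays, with the insulin array at the left and the control at the right; an asterisk marks a gene not detected on that array. AFP stands at 14.3 with insulin, 10.5 with LY294002 and 14.2 in the control, while CKM stands at 6.4 with insulin, 11.4 with LY294002 and 7.6 in the control.

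Within the insulin pathway itself, several upstream genes were higher with insulin. IGF2, the fetal growth factor that signals through the insulin receptor and the IGF1 receptor, stood at 7.83 with insulin and was undetected with LY294002 (4.88), at least 5.07-fold higher; it was also detected in the control (6.89) and undetected with IWP2 and with both inhibitors. IGF1 and its receptor IGF1R were not detected on any of the 5 arrays. INSR, the insulin receptor, was dim: it was undetected with insulin (4.98) and at 5.89 with LY294002, at least 1.48-fold lower with insulin. IGF2R, which clears IGF2 from the surface, stood at 10.29 with insulin and 7.44 with LY294002. The ligand IGF2 and its clearance receptor IGF2R were thus both higher with insulin, and the signaling receptors were at or under the detection limit.

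Of the adaptors, IRS1 stood at 7.34 with insulin and 6.03 with LY294002, SHC1 at 10.03 with insulin and 8.66 with LY294002, and GRB10, which restrains the insulin receptor, at 7.25 with insulin and 6.20 with LY294002. IRS2 was detected with insulin only, at least 1.49-fold higher, and GRB2 stood at 7.17 with insulin and 7.03 with LY294002; a second GRB2 probe gave -0.76 beside 0.14. Over the list of ligands, receptors and adaptors, 4 of 6 measured genes were at least 2-fold higher with insulin and none was lower by that size. The shares over all genes were 12.7% and 11.9%. The median was 1.13 over 10 genes (0.81 with bounds).

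The IGF-binding proteins, which carry IGFs outside the cell and set how much reaches the receptor, showed 3 members far higher with insulin. IGFBP3 stood at 12.23 with insulin and 8.66 with LY294002, IGFBP5 at 10.71 with insulin and 8.30 with LY294002, and IGFBP4 at 9.40 with insulin and 7.33 with LY294002. Second probes gave 2.95 for IGFBP3 beside 3.57 and 1.33 for IGFBP5 beside 2.41. IGFBP2 and IGFBP7 were slightly lower, at 7.98 and 8.94 with insulin and 8.32 and 9.50 with LY294002, and IGFBP6 was detected with LY294002 only, at 6.10. The group was therefore divided, with a median of 0.64 over 9 genes.

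**Figure D4:**
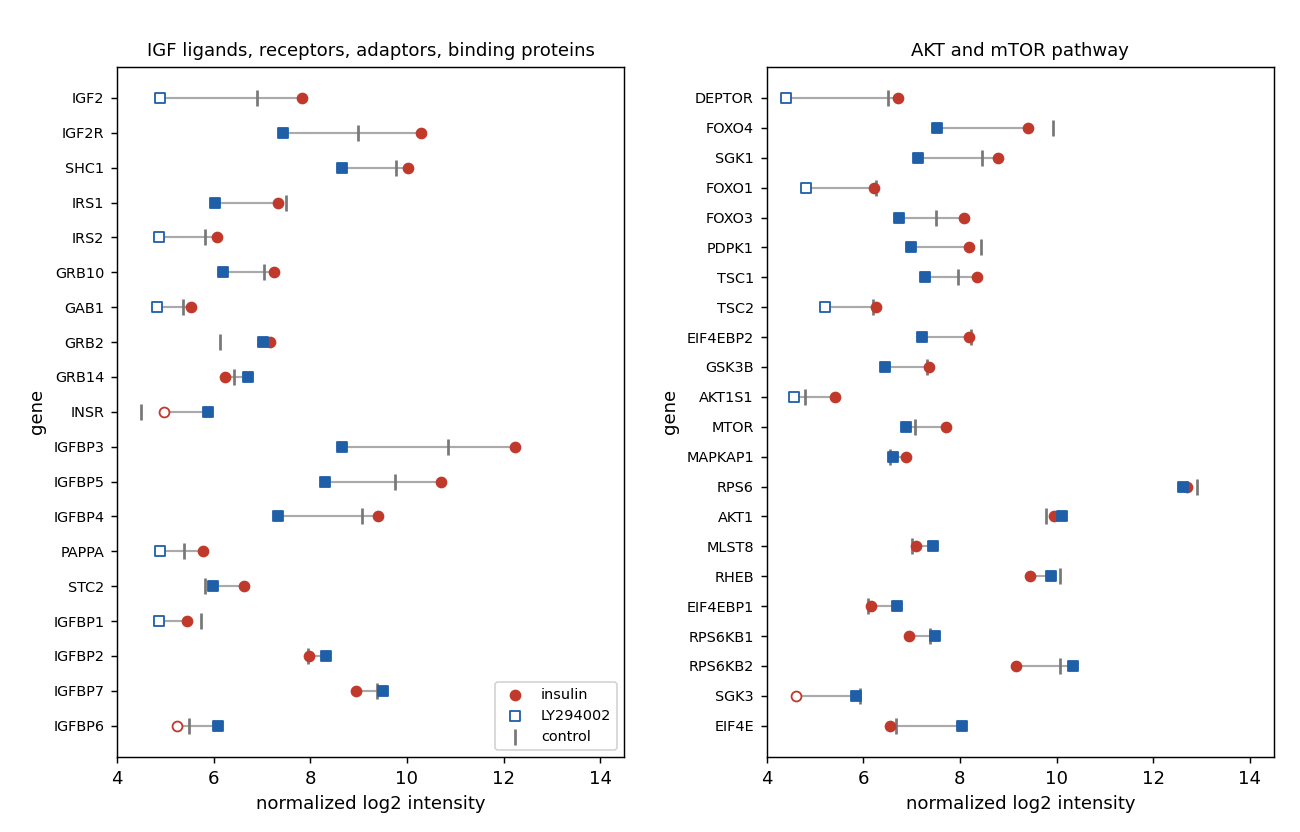
Normalized log2 intensity of IGF ligands, receptors, adaptors and binding proteins (left) and of the AKT and mTOR pathway (right). Red circles are the insulin array, blue squares the LY294002 array and grey bars the control array; open symbols were not detected. IGFBP3 stands at 12.23 with insulin and 8.66 with LY294002, while AKT1 stands at 9.94 and 10.12.

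Of the PI3K subunits and opposing phosphatases, 4 genes were measured on both arrays. By 2-fold or more, 1 was higher and 1 lower with insulin, against 12.7% and 11.9% of all genes. None of the 4 is a subunit of class I PI3K, so the values do not show how genes of that class differed. PIK3IP1, an inhibitor of PI3K at the cell surface, stood at 7.40 with insulin and 5.59 with LY294002, and PIK3C3, the class III enzyme of autophagy and endosomes, at 6.58 with insulin and 7.94 with LY294002. The other 2 genes measured on both arrays, PIK3C2A and INPPL1, differed by 0.21 and -0.24. Near the limit, 4 genes were detected with insulin only, against 15.5% of all genes.

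In the AKT and mTOR pathway AKT1 was close and other kinases differed in both directions. AKT1 stood at 9.94 with insulin and 10.12 with LY294002, RHEB, the activator of mTOR, at 9.46 with insulin and 9.88 with LY294002, and MTOR at 7.72 with insulin and 6.89 with LY294002. TSC1, which with TSC2 restrains RHEB, stood at 8.35 with insulin and 7.27 with LY294002, TSC2 was detected with insulin only (at least 1.71-fold higher), and the mTOR inhibitor DEPTOR was detected with insulin only (at least 2.35-fold higher). PDPK1, which phosphorylates AKT, stood at 8.19 with insulin and 6.99 with LY294002, and SGK1, a kinase related to AKT, at 8.78 and 7.13. The translation factor EIF4E stood at 6.56 with insulin and 8.04 with LY294002, and the ribosomal kinase RPS6KB2 at 9.16 with insulin and 10.35 with LY294002. GSK3B, a kinase that AKT inhibits, differed by 0.92, and SGK3 was detected with LY294002 only (at least 1.43-fold lower). Over the list, 5 of 17 measured genes were higher and 2 lower with insulin by 2-fold or more, against 12.7% and 11.9% of all genes, and the median was 0.83 over 22 genes (0.50 with bounds).

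The FOXO factors, which AKT holds outside the nucleus, were higher as transcripts with insulin. FOXO4 stood at 9.42 with insulin and 7.52 with LY294002, FOXO3 at 8.09 with insulin and 6.74 with LY294002, and FOXO1 was detected with insulin only (at least 1.66-fold higher). Genes known from other tissues to respond to FOXO were mixed: 4 of 12 measured were at least 2-fold higher and 2 lower with insulin, against 12.7% and 11.9% of all genes, with a median of 0.58 over 21 genes. KLF6 stood at 9.45 with insulin and 7.12 with LY294002, the glucose-uptake inhibitor TXNIP at 11.64 with insulin and 10.13 with LY294002, and BCL6 was at least 5.12-fold higher. The muscle ubiquitin ligases TRIM63 (at least 3.55-fold lower with insulin) and FBXO32 (6.07 with insulin and 7.46 with LY294002) and the mitochondrial dismutase SOD2 (7.26 and 8.71) ran the other way. TRIM63 and FBXO32 are muscle genes, so their values move with the heart muscle lists, and how much of the difference belongs to either was not tested.

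Several enzymes of fatty acid synthesis were higher with insulin. ACLY, which makes cytosolic acetyl-CoA, stood at 11.10 with insulin and 9.22 with LY294002, ACACA, which makes malonyl-CoA, at 9.49 with insulin and 7.48 with LY294002, and FASN, the synthase, at 13.41 with insulin and 11.25 with LY294002. SCD, which desaturates stearate, stood at 13.16 with insulin and 11.07 with LY294002, and FADS1 at 10.41 and 7.92. These 5 genes were higher by 1.87 to 2.48 log2 units, and liver-type cells are also known to express them strongly. The desaturase FADS2 stood at 6.20 with insulin and 5.81 with LY294002, and ELOVL6, an elongase, at 8.62 with insulin and 9.01 with LY294002, so not every member of the pathway was higher.

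Cholesterol synthesis was less even. SQLE, which oxidizes squalene, stood at 10.99 with insulin and 9.52 with LY294002, DHCR7, the last step, at 9.26 and 7.66, and EBP at 9.50 and 7.16. HMGCS1 stood at 11.23 with insulin and 10.36 with LY294002 and INSIG1, a sensor of the pathway, at 9.31 on both. TM7SF2 (7.82 with insulin and 9.33 with LY294002) and SC5D (9.59 and 10.78) were lower. The transcription factors SREBF1 and SREBF2 stood at 6.50 and 5.52 with insulin and 6.14 and 6.02 with LY294002. For fatty acid and cholesterol synthesis together, 9 of 26 stood higher and 2 lower by 2-fold or more, against 12.7% and 11.9% of all genes, with a median of 0.50.

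Serine synthesis and the ATF4 response, which mTOR is known to promote, had 12 of 17 measured genes at least 2-fold higher with insulin and 1 lower. The shares over all genes were 12.7% and 11.9%, and the median of the list was 1.39. The serine pathway was complete: PHGDH, the enzyme of the entry step, stood at 12.90 with insulin and 11.02 with LY294002, PSAT1 at 10.28 with insulin and 7.45 with LY294002, and PSPH at 7.89 with insulin and 6.31 with LY294002. Of the mitochondrial folate enzymes that work downstream of serine, SHMT2 stood at 10.24 with insulin and 9.16 with LY294002 and MTHFD2 at 8.73 and 7.21. The amino acid exchanger made of SLC7A5 and SLC3A2 stood at 9.70 and 9.80 with insulin and at 7.37 and 7.98 with LY294002. All enzymes of serine synthesis and both chains of the exchanger thus shared the direction.

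ASNS, the asparagine synthetase and a defining ATF4 target, stood at 10.09 with insulin and 7.79 with LY294002, with a second probe at 1.56 beside 2.30. Its promoter is shown with the amino acid response element TGATGNAA, the composite site of ATF4 and C/EBP factors, in capitals, from RefSeq sequence of build GRCh38.p14 on the minus strand at chr7:97872429-97872516.
ASNS: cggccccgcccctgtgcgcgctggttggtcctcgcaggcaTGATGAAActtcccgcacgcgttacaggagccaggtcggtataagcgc

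The element, searched on both strands, was found in 3 of 18 genes of this list with a promoter (AARS1, ASNS and ATF3), against 3.89% of all genes. For ASNS, 1 of its 2 promoters held it, the one shown. Matches of the element shared bases with the forkhead core in 38 promoters of the table. ATF4 itself stood at 12.32 with insulin and 11.52 with LY294002, but its probes disagreed, with others at -0.76 and 0.68 beside 0.79. DDIT3, the death-associated factor of the same response, ran the other way, at 6.39 with insulin and 7.41 with LY294002. DDIT4, an inhibitor of mTOR, stood at 10.21 with insulin and 8.72 with LY294002.

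**Figure D5:**
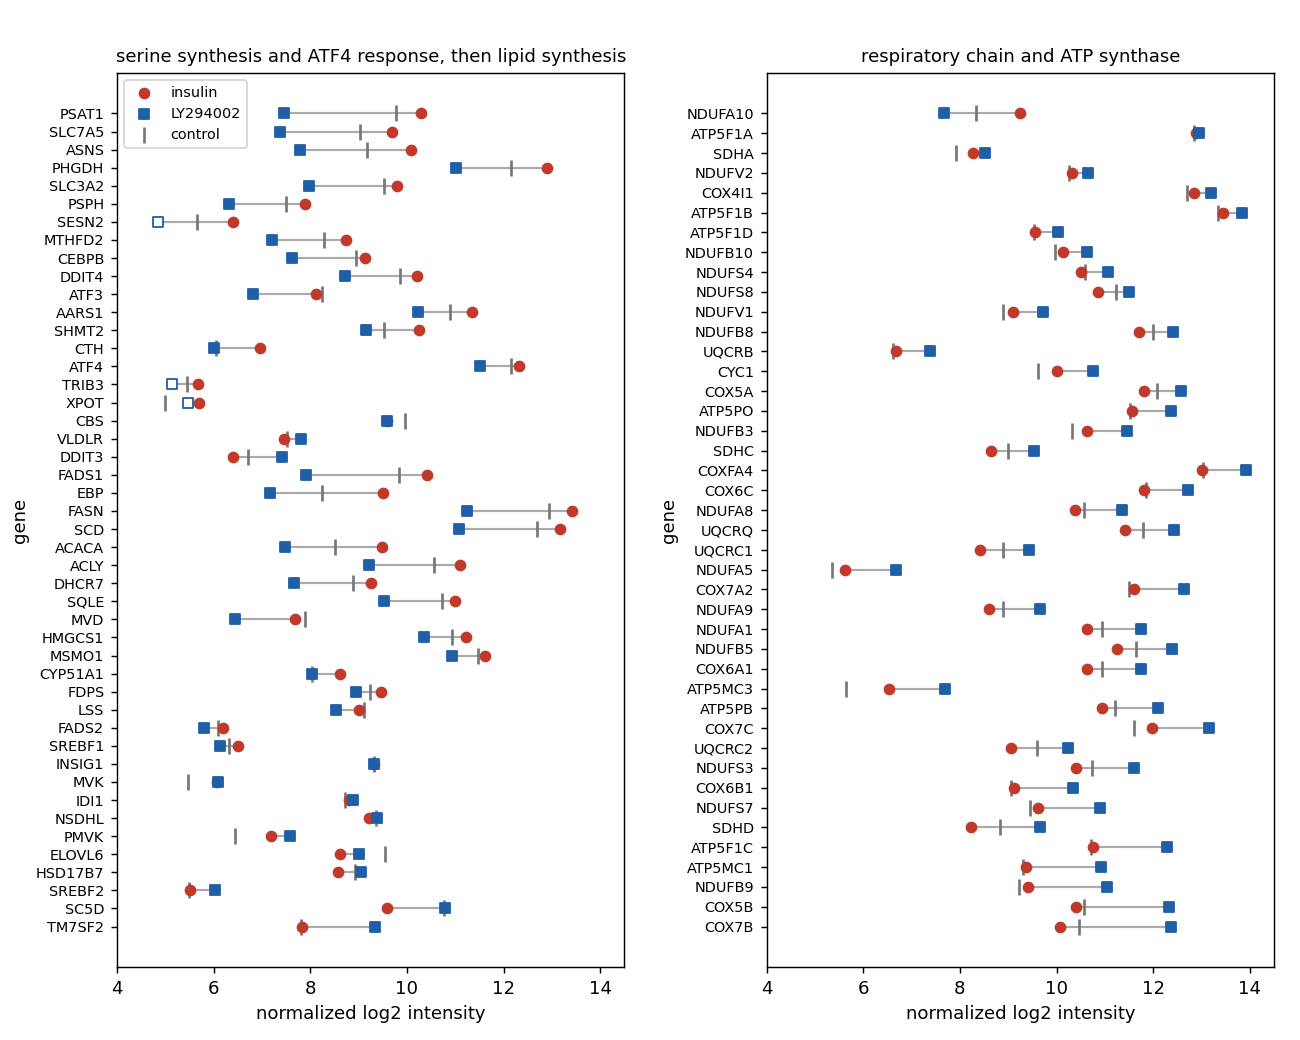
Normalized log2 intensity of serine synthesis and ATF4 response genes followed by lipid synthesis genes (left) and of respiratory chain and ATP synthase genes (right), each list sorted by the difference. Red circles are the insulin array, blue squares the LY294002 array, grey bars the control array, and open symbols were not detected. PSAT1 stands at 10.28 with insulin and 7.45 with LY294002, while COX7B stands at 10.08 with insulin and 12.37 with LY294002.

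Of the glycolysis and hypoxia-responsive genes, 6 of 25 measured were at least 2-fold higher and 1 lower with insulin, against 12.7% and 11.9% of all genes, with a median of 0.24. The glucose transporters SLC2A3 and SLC2A1 stood at 12.78 and 10.16 with insulin and at 10.95 and 9.18 with LY294002. The hypoxia-responsive genes NDRG1 and P4HA1 stood at 9.04 and 11.15 with insulin and at 6.66 and 9.41 with LY294002. GAPDH, PGK1 and LDHA differed by -0.30, 0.15 and 0.33, while GPI stood at 7.69 with insulin and 9.16 with LY294002. The aldolases ALDOC and ALDOA differed by 1.48 and -0.94, the phosphofructokinase PFKL by 1.08 and the hexokinase HK2 by 0.34, so enzymes of the pathway lay on both sides.

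Of the folding and secretion genes of the endoplasmic reticulum, 6 of 24 were at least 2-fold higher and 1 lower with insulin, against 12.7% and 11.9% of all genes, with a median of 0.36. The peptidyl-prolyl isomerase FKBP11, which is high in secretory cells, stood at 11.12 with insulin and 7.42 with LY294002, CREB3L2, a regulator of collagen secretion, at 11.03 and 8.27, and the isomerase P4HB at 11.63 and 10.08. The chaperones HSPA5 and HSP90B1, which mark a folding stress, stood at 8.55 and 10.74 with insulin and 8.24 and 10.80 with LY294002. Components of the entry channel and signal cleavage differed less, with SEC61B at 0.53, SSR1 at 0.16, SPCS1 at 0.11 and SSR4 at -0.27.

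Growth and proliferation genes mostly differed little at harvest. Over all genes, 12.7% were at least 2-fold higher with insulin and 11.9% lower. Of 28 measured mitosis genes 1 was at least 2-fold higher, TPX2, a spindle assembly factor (7.95 with insulin and 6.62 with LY294002), and none was lower by that size, with a median of -0.09. Of 26 S phase genes 2 were higher, CCND1 (10.40 and 8.99), the cyclin that opens G1, and CDT1 (6.89 and 5.75), a licensing factor of replication, and the median was 0.02. The sign of both medians changed between processing alternatives. MYC was detected with insulin only, at least 2.48-fold higher, and MYCN stood at 9.82 with insulin and 8.81 with LY294002, yet no other measured gene of ribosome biogenesis was past 2-fold and the median of that list was 0.42. CDKN1C, an imprinted inhibitor of the cell cycle, stood at 11.23 with insulin and 9.02 with LY294002, whereas CDKN1A and CDKN1B differed by -0.64 and -0.16.

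Autophagy and lysosome genes, which mTOR is known to hold down, had 3 of 24 measured genes at least 2-fold higher and 1 lower, against 12.7% and 11.9% of all genes, with a median of 0.09. The protease CTSB stood at 9.86 with insulin and 8.14 with LY294002 and BECN1, a core autophagy factor, at 7.71 with insulin and 6.30 with LY294002. MAP1LC3B and SQSTM1, the marker proteins of autophagosomes, differed by 0.02 and -0.02. LAMP2 stood at 8.96 with insulin and 7.27 with LY294002, but another probe of it gave -1.57. The list was thus close to the median of all genes, 0.05.

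WNT pathway genes differed in both directions. The ligands WNT2 (4.83, undetected, with insulin and 9.35 with LY294002), WNT11 (5.75 and 7.93) and WNT5B (6.13 and 7.43) were lower with insulin, and the secreted frizzled-related antagonists FRZB (11.62 with insulin and 8.27 with LY294002), SFRP5 (at least 7.93-fold) and SFRP1 (10.63 and 9.59) were higher. Of the canonical targets, AXIN2, the feedback inhibitor that follows beta-catenin activity, stood at 7.90 with insulin and 7.85 with LY294002. LEF1 stood at 10.45 with insulin and 9.34 with LY294002, NKD2 was detected with insulin only (at least 2.41-fold higher), and TNFRSF19 stood at 7.36 with insulin and 10.52 with LY294002. Other inhibitors of the pathway ran the other way or differed little: APCDD1 was detected with LY294002 only (at least 3.16-fold lower with insulin), and DKK1 and DKK3 differed by -0.39 and -0.43. The list of ligands and antagonists had a median of -0.81 over 12 genes and the target list a median of 0.05.

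In the BMP and TGF-beta pathway the ligands BMP5 and BMP7 stood at 8.42 and 5.65 with insulin and at 10.57 and 8.27 with LY294002. BMP2 stood at 9.03 with insulin and 8.55 with LY294002, and ID1, ID2 and ID3, direct BMP targets, differed by -0.25, 0.43 and 0.11, whereas ID4 stood at 5.40 with insulin and 8.23 with LY294002. The coreceptor TGFBR3 stood at 9.51 with insulin and 6.78 with LY294002, and the inhibitor SMAD7 at 8.72 and 7.54. Over the list, 3 of 15 measured genes were higher and 3 lower by 2-fold or more, against 12.7% and 11.9% of all genes, with a median of 0.40. BMP5 and BMP7 were thus lower while ID1, ID2 and ID3 were not past 2-fold.

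Of receptor tyrosine kinases and MAPK feedback genes, 4 of 16 measured were at least 2-fold higher and 1 lower with insulin, against 12.7% and 11.9% of all genes, with a median of 0.58. Besides PDGFRB, the receptors FGFR3 (11.23 with insulin and 10.06 with LY294002) and FGFR4 (at least 2.30-fold) and EGFR (at least 1.83-fold) were higher, although a second FGFR3 probe gave -0.18 beside 1.17. The feedback inhibitors did not share a direction: SPRY1 stood at 7.02 with insulin and 8.75 with LY294002, SPRY4 was detected with insulin only (at least 2.08-fold higher), and DUSP6 differed by -0.38. In the retinoic acid list, the retinaldehyde dehydrogenase ALDH1A1 stood at 10.38 with insulin and 7.10 with LY294002 and the retinoic acid-binding protein CRABP2 at 8.35 and 9.39. Of 9 measured genes 3 stood higher and 2 lower by 2-fold or more. The 3 higher genes include ALDH1A1 and RBP4, which also belong to the liver product lists.

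Imprinted genes, many of which set fetal growth, had 7 of 15 measured at least 2-fold higher with insulin and 1 lower, against 12.7% and 11.9% of all genes, with a median of 0.64. H19, the untranslated RNA next to IGF2, stood at 13.33 with insulin and 10.01 with LY294002, DLK1 at 13.02 with insulin and 8.64 with LY294002, and PEG10 at 8.15 with insulin and 6.08 with LY294002. SNRPN was the 1 lower gene, at 9.47 with insulin and 10.59 with LY294002, but its other probes gave 0.30 and -0.20 beside -1.12, and NDN stood at 10.60 and 10.63. Because IGF2, H19, DLK1 and AFP are expressed together in fetal liver and yolk sac, these values also move with the liver product lists, and how much belongs to either was not tested.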

How the data were processed

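Per the labels' protocols, total RNA was turned into biotinylated cRNA and hybridized to Illumina expression BeadChips. The deposited scanner table covers 47299 probes; per the file headers its columns pair an unnormalized intensity with a detection p-value. Another deposited table holds log2 values whose making by the authors is not described in the sources used here; its columns have nearly the same distribution and keep the order of the intensities.

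Intensities were corrected with normexp, taking negative control moments from the deposited detection p-values, quantile-normalized across all 5 arrays and taken to log2 with an offset of 16 (neqc, limma 3.58.1, R 4.3.3; then Python 3.11.15, numpy 2.4.6, pandas 2.3.3). This offset shrinks the differences of dim genes. Of the probes, 30106 had 1 gene symbol in the platform annotation, 8 had several and 17185 had none. In 6690 genes with several probes the probe that was brightest on average was taken. Detection meant p under 0.01, and the threshold was 2-fold. Precision is limited by the number of arrays, which were grouped by treatment label.

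The 46 gene lists and all choices were made with earlier results of these data known. List medians are over members detected on at least 1 of the 2 arrays. The 15 largest differences and 10 largest bounds either way were named by rule, with fixed genes of the insulin pathway and of identity. Within the lists, the members shown were chosen after their values were seen. Not every list member past 2-fold is named. Some left out, such as COL6A3 (3.02) and TRIM55 (-3.06), had larger differences than some of those shown. Placeholder and Y-linked names were left out, and TNNT2 was not analysed here. On simulated arrays for this pair with a noise SD of 0.1, 50 of 50 probes made 4-fold higher and 39 of 50 made 4-fold lower were detected on both arrays, all past 2-fold (medians 1.76 and -1.73), and 0% of 12794 unchanged probes were. The simulated insulin array was the LY294002 array with this noise added, so an unchanged probe could hardly pass 2-fold. The 0% therefore does not measure false calls between arrays of separate cultures. Promoters came from RefSeq (GRCh38.p14), and the HNF1 motif was shortened by 1 base after its first matches were seen. Alternatives were the background correction, normalization, offset, detection filter, probe choice, the authors' deposited log2 table and, added later, equal numbers of detected probes.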

Additional observations from a re-analysis of the deposited data

How the results depend on the processing

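No paired analysis was possible because each group has 1 array. Each count and list median was recomputed under 10 alternatives, and no named gene or list member past 2-fold turned its sign; the medians of the mitosis, S phase, cell cycle inhibitor, cardiac transcription, HOX and presomitic lists did change sign, the last of them with a median of -0.57 over 3 genes that ran from -0.75 to 0.08. Quantile normalization over the 2 arrays alone, cyclic loess, the authors' deposited table (905 higher and 832 lower) and equal numbers of detected probes (981 and 884) left every count past 2-fold within 1.5 times. Without background correction 934 genes were past 2-fold, 516 higher and 418 lower, and medians were smaller: IGF ligands, receptors and adaptors 0.49, sarcomere -1.52, liver regulators 1.06, coagulation 1.08, hepatic metabolism 1.38, metallothioneins 0.66, yolk sac 1.51, epithelium 0.94, epicardium 0.66, endothelium 0.47 and neural 0.49. Scaling to the 75th percentile left 609 lower genes. With no detection filter 2942 genes were past 2-fold, 1701 of them higher, and medians were 0.46 for the IGF list, 0.71 for liver regulators, 0.73 for hepatic metabolism, 0.90 for metallothioneins, 0.76 for epithelium, 0.62 for epicardium, 0.31 for endothelium, -0.13 for skeletal muscle and 0.04 for neural genes. An offset of 50 gave 0.73 for the IGF list, 1.23 for liver regulators, 1.47 for coagulation, 0.96 for metallothioneins, 0.66 for endothelium and 0.56 for neural genes. A detection p under 0.05 gave -0.64 for skeletal muscle and 0.57 for neural genes, and the mean over a gene's probes gave 0.59 for the IGF list and 0.45 for neural genes. The cause was not tested, except that a larger offset and uncorrected background shrink dim differences by construction, and that dropping the filter adds undetected genes. Genes under a mean level of 6 could hardly pass the threshold: of 719 such genes 0 were past 2-fold higher and 9 lower.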

Other observations

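Further gene lists are given as values, beside 12.7% higher and 11.9% lower over all genes. Of 11 detected pluripotency and LIN28 genes, 5 were at least 2-fold higher with insulin and none was lower by that size, with a median of 0.89 that ran from 0.04 to 1.16 over the processing alternatives. LIN28A, the RNA-binding protein that blocks let-7 maturation, stood at 10.07 with insulin and 8.53 with LY294002, SALL4, a zinc finger factor of stem cells and fetal liver, at 8.86 and 7.29, and IGF2BP2, which binds IGF2 mRNA, at 10.68 and 8.50. LIN28A, SALL4 and IGF2BP2 were thus higher with insulin although POU5F1, NANOG and SOX2 were not detected. Of 3 measured metal handling genes 2 were at least 2-fold higher: the transporter SLC39A14 stood at 8.48 with insulin and 5.54 with LY294002 and MT1F at 9.67 and 7.34, while MT1G was at least 8.80-fold higher and MT2A at least 3.78-fold higher. Metallothionein genes are near-identical copies, so their probes may share signal, and MT1X ran the other way, detected with LY294002 only at 6.13.

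Smooth muscle genes had a median of 0.64, with 3 of 7 measured genes at least 2-fold higher and 1 lower with insulin: TAGLN stood at 12.05 with insulin and 10.61 with LY294002 and CALD1 at 10.56 and 8.31, while MYL9 stood at 8.42 and 9.45 and ACTA2 at 11.96 and 12.55. Among limb and lateral plate genes the hindlimb factor PITX1 stood at 9.62 with insulin and 7.08 with LY294002 and SNAI2 at 8.28 and 6.87, while FOXF1 was detected with insulin only (at least 2.65-fold higher). MESP1, the early cardiac mesoderm factor, was detected with LY294002 only, at least 3.13-fold lower with insulin. Neural genes were few, with TUBB3 at 7.51 with insulin and 6.39 with LY294002. HOXB5 stood at 10.17 with insulin and 9.10 with LY294002, the 1 gene past 2-fold of 6 measured in the HOX list. That list also holds MEIS1 and MEIS2, which are not HOX genes, and its median was -0.26. Of the skeletal muscle list 2 of 18 genes were detected, CKM and ACTA1, in opposite directions.

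Of 17193 probes with no usable gene name, 2155 were detected on both arrays, of which 124 were at least 2-fold higher and 211 lower with insulin, 15.5% in all, against 24.6% of named genes. Of the genes past 2-fold, another probe gave the opposite sign past 0.58 for RCAN2 (-1.75 and 0.89), LAMP2 (1.69 and -1.57), APOBEC3F (1.45 and -1.49), TAF15 (1.28 and -0.78), and HNRNPUL1 (1.59 and -0.80). Among other list members this held for SDHC (-0.88 and 1.63), ATF4 (0.79 and -0.76), ACADVL (0.21 and -0.86), GRB2 (0.14 and -0.76) and RPL6 (0.13 and -0.7). The direction of all these genes is not settled by the array.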
